A study of Mus musculus with 6 samples.

Results

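The genes of the interferon-γ (IFN-γ) receptor and its kinases, Ifngr1, Ifngr2, Jak1 and Jak2, were contrasted with genes that restrain cytokine signalling, Socs1, Socs2, Socs3, Ptpn2 and Usp18. The question was whether the predicted regulatory elements of the first group and of the second differ between untreated and IFN-γ-treated oligodendrocyte precursor cells (OPCs). The 9 genes were chosen by name, as the Ensembl identifiers of the target genes, among 32049 target genes in all. Of the 9 genes, 8 were listed as a target gene in at least 1 condition, 7 in each condition and 6 in both. Each condition listed 12 element-gene pairs for them, of 66637 pairs in control OPCs (Ctr-OPCs) and 71478 in treated OPCs (IFN-γ-OPCs).

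The cells were primary OPCs from mice labelled as strain C57BL/6j and genotype Sox10-Cre/RCE. Per the study's methods this is the Sox10:Cre-RCE:LoxP (EGFP) cross, of which the Cre parent was C57BL/6j and the reporter parent of a mixed C57BL/6 and CD1 background. The cells were prepared from pooled brains of early postnatal pups, in which Cre driven by Sox10 switches on EGFP in the oligodendrocyte lineage, and were selected either by sorting for EGFP or with magnetic beads against CD140a, the PDGFRA protein. Which selection served these libraries is not given in the sources used here. Starting 24 h after passaging they were kept in proliferation medium, which holds bFGF and PDGF-AA, either alone (Ctr-OPCs) or supplemented with IFN-γ at 100 ng/mL, giving IFN-γ-OPCs. The 6 libraries of HiChIP for H3K27ac, a histone mark of active promoters and enhancers, fell into 3 libraries per condition. The authors deposited 1 table per condition for the 3 libraries together, so no value has a replicate error, no difference could be tested, and read depth is not known from the tables.

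IFN-γ binds a receptor made of IFNGR1 and IFNGR2, which brings together the kinases JAK1 and JAK2. Signalling through the kinases reaches sites of the GAS type in DNA and raises the transcription of nearby genes. The SOCS proteins are a feedback arm: SOCS1 and SOCS3 block JAK activity, whereas SOCS2 is best known as a brake on growth hormone signalling. PTPN2 is a phosphatase that acts on JAK1, and USP18 removes ISG15 from proteins and restrains signalling from the type I interferon receptor.

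Elements were described by 3 measures. Activity is a signal built from chromatin accessibility and H3K27ac coverage of the element, and contact is the HiChIP contact between the element and the promoter in 5 kb bins. The activity-by-contact (ABC) score is activity times contact of the element as a share of the sum over all elements of the gene. This sum is here called the gene total. For the listed genes of the 2 groups, listed pairs made up 2.00% to 25.7% of it. Most of it thus came from elements not listed, which can include the gene's own promoter. A pair with an ABC score above 0.05 was called a connection, the cut-off of the study's methods. Tables began at a score of 0.02, so a pair missing for a listed gene had a smaller share or no candidate element at that place. A gene can also be missing as a whole because of its promoter, since no listed gene had a promoter activity quantile below 0.4.

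The sequences below were chosen to show the motif matches in elements of Socs1, Socs3, Jak2 and Usp18, and were read from the GRCm38 genome, the build of the tables. Capitals mark matches to the GAS letters TTCNNNGAA, a palindrome, or to the core of the interferon-stimulated response element (ISRE) GAAANNGAAA on either strand. GAS is the site type known from the response to IFN-γ, and the ISRE is bound by IRF proteins. The Socs1 element, intergenic and listed in IFN-γ-OPCs alone, held 2 ISRE cores on opposite strands and no GAS match. The Socs3 element, intergenic and listed in both conditions, held 1 GAS match, as did each of the neighbouring elements in the Jak2 intron nearest the start site. Both windows of Usp18 lie in the 1 element listed for that gene, which was not a connection, outside annotated UTRs. The Jak2 element farther into the gene and the downstream Socs3 element, described with those genes, held 0 matches and are not shown.
Socs1 upstream element, chr16:10787225-10787354 (+ strand): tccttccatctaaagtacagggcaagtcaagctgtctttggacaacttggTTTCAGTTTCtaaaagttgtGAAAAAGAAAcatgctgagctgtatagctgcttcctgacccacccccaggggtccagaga
Socs3 upstream element, chr11:117976175-117976283 (+ strand): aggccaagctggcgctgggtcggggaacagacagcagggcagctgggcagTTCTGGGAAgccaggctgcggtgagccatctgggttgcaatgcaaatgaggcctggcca
Jak2 first intronic element, chr19:29253695-29253803 (+ strand): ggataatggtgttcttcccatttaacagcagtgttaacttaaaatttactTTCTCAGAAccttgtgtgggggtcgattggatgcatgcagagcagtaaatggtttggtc
Jak2 second intronic element, chr19:29254504-29254612 (+ strand): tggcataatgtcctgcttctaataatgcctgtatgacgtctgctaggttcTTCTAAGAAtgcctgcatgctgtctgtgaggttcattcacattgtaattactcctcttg
Usp18 element, ISRE core, chr6:121251197-121251306 (+ strand): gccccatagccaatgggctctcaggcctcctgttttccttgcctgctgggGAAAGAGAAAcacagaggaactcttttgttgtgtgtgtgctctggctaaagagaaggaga
Usp18 element, GAS, chr6:121251634-121251742 (+ strand): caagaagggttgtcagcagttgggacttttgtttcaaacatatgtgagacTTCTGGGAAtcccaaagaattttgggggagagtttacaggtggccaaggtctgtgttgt

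The promoter of Socs1 is shown because its activity was near the top of all genes in IFN-γ-OPCs. These are the 150 bases before the RefSeq start (GRCm38.p6), on the strand of the gene, with 2 overlapping ISRE cores in capitals.
Socs1 promoter, chr16:10785537-10785686 (- strand): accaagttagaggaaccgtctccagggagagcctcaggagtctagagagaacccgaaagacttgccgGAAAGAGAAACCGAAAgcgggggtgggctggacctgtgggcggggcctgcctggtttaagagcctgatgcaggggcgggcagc
RefSeq promoter windows of 300 bp were at hand for 6 of the 9 genes, Ifngr1, Ifngr2, Jak1, Jak2, Socs1 and Socs3. The ISRE core was found in that of Socs1 only, against 3.44% of 32851 promoter windows, and GAS in that of Socs3 only, against 8.30%. The RefSeq start of Socs3 differs from the start site that the tables use.

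Over all listed elements of the 9 genes, GAS matched 4 of 12 in Ctr-OPCs against 4 of 12 in IFN-γ-OPCs, and the ISRE core 1 of 12 and 2 of 12. Elements differ in width, so shares were set beside those of elements of the same 500 bp width. Of the 7 such elements in each condition, GAS matched 2 in Ctr-OPCs against 1 in IFN-γ-OPCs, beside 14.6% of 17106 and 15.7% of 22029 in all. The ISRE core matched 0 and 1, beside 5.86% and 9.57% in all. With these small numbers the matches describe single elements. The stricter site TTCCNGGAA was found once, in the Ctr-OPC element 12.7 kb upstream of Ifngr2. The Ctr-OPC element of Socs1, in an intron of Rmi2, held 2 GAS matches and 1 ISRE core over 1147 bp.

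At the cut-off of 0.05, the receptor and kinase genes had 2 connections in each condition, all of Jak2 and 1 of them in common, whereas the negative regulators had 0 in Ctr-OPCs against 2 in IFN-γ-OPCs, 1 each of Socs1 and Socs3. Connections were more numerous in IFN-γ-OPCs for 2 of the 9 genes and less numerous for 0, beside 14.9% and 13.0% of all target genes. Listed pairs went the other way in the 2 groups, 7 in Ctr-OPCs against 5 in IFN-γ-OPCs for the receptor and kinase genes, and 5 and 7 for the negative regulators. Usp18 was listed in IFN-γ-OPCs only, as were 19.6% of all target genes, and Ptpn2 in Ctr-OPCs only, as were 17.0%. Jak1 was listed in neither condition. At a cut-off of 0.1 the negative regulators had 0 connections in both conditions, and Jak2 had 0 in Ctr-OPCs against 1 in IFN-γ-OPCs. With the power-law score at 0.05, Socs1 again had 1 more in IFN-γ-OPCs, Socs3 had 0 more, and Usp18 and Jak2 had 1 more each. With that score the negative regulators had 2 connections in Ctr-OPCs, both of Socs2, against 4 in IFN-γ-OPCs. The receptor and kinase genes had 2 and 3.

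**Figure D1:**
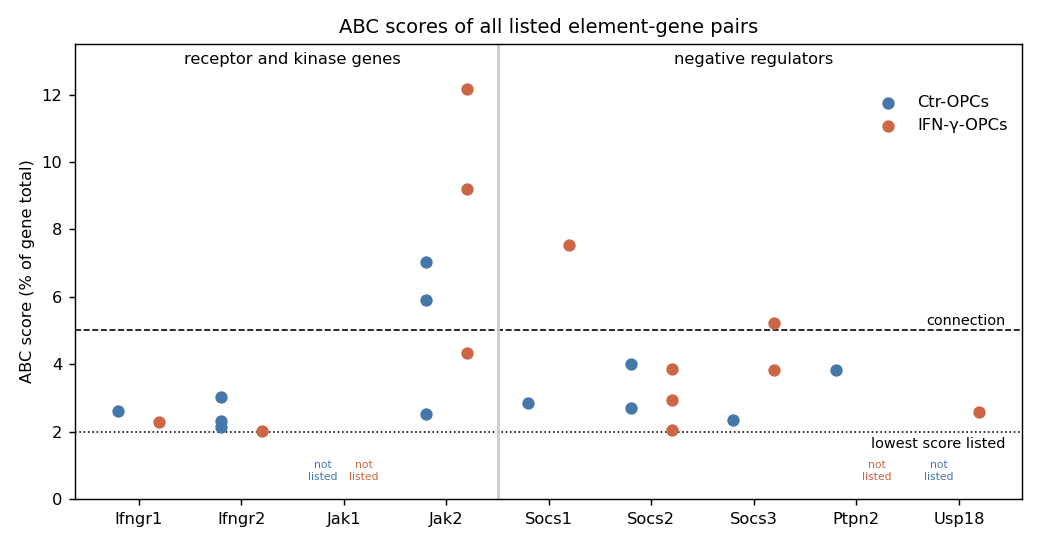
ABC score, in percent of the gene total, of every listed element-gene pair of the 9 genes, with 1 point per pair, Ctr-OPCs in blue and IFN-γ-OPCs in orange. The dashed line is the cut-off for a connection and the dotted line the lowest score in the tables. In each condition 2 of the 3 Jak2 points lie above the cut-off, and in IFN-γ-OPCs so do the Socs1 point and 1 of the 2 Socs3 points.

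Ifngr1 (ENSMUSG00000020009, chr10:19591949-19610229, + strand), which encodes the ligand-binding chain of the receptor, had 1 listed element in each condition and they were not the same one. In Ctr-OPCs it was an element of 500 bp in an intron of the gene itself, 7.79 kb from the start site, with an activity of 0.473, a contact of 0.0264 and a score of 0.0261. In IFN-γ-OPCs it was an element 282 kb upstream in an intron of Gm33056, with an activity of 1.45, a contact of 0.00786 and a score of 0.0228. The far element was also listed in Ctr-OPCs, with an activity of 0.901 and the same width, for the genes Olig3 and Gm33056. The scores were above 37.5% and 20.9% of all pairs of their tables, and the gene total was nearly equal, 0.479 and 0.497. The products of activity and contact, 0.0125 and 0.0114, were only 1.26 and 1.19 times the product that would have listed each element for Ifngr1 in the other table, so the change of element was close to the limit.

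Ifngr2 (ENSMUSG00000022965, chr16:91547072-91565623, + strand), which encodes the other receptor chain, had 3 listed elements in Ctr-OPCs against 1 in IFN-γ-OPCs, and its listed scores summed to 7.48% and 2.00% of the gene total. The intronic element at chr16:91552471-91553745 was the 1 listed in both, with scores of 0.0301 and 0.02, the latter at the limit of the table. Its activity was 0.710 in Ctr-OPCs against 0.465 in IFN-γ-OPCs, its contact 0.0598 and 0.0574, and its width 1275 and 754 bp. The element 12.7 kb upstream was 2183 bp wide with an activity of 1.57 in Ctr-OPCs, and 927 bp wide with 0.748 in IFN-γ-OPCs, where it was listed for Mir6367 and Gm7860 and not for Ifngr2. The third Ctr-OPC element lies 242 kb upstream, in an intron of Gm15966 at the Olig1 and Olig2 locus, and its activity of 11.3 was higher than that of 99.98% of the elements of the table. It had 25 target genes in Ctr-OPCs, among them Olig1, Olig2, Ifnar1 and Ifnar2, and in IFN-γ-OPCs an activity of 6.27, a width of 500 instead of 1140 bp and 16 target genes without Ifngr2.

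The pairs that left the Ifngr2 list were close to the limit. Their products of activity and contact in Ctr-OPCs, 0.0326 and 0.0303, were only 1.22 and 1.14 times the product that a score of 0.02 would have needed in IFN-γ-OPCs. The gene total of Ifngr2 was 1.41 in Ctr-OPCs against 1.33 in IFN-γ-OPCs, a log2 ratio of -0.08 at the 46.0th percentile of all genes.

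Jak1 (ENSMUSG00000028530), the kinase that sits on the IFNGR1 chain, was listed in neither table, so its gene total and scores are not known from these data. Elements were nevertheless present in its gene body, from 101152367 to 101265282 on chromosome 4, listed for other genes. There were 4 with a summed activity of 2.65 in Ctr-OPCs against 3 with 2.93 in IFN-γ-OPCs.

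Jak2 (ENSMUSG00000024789, chr19:29251828-29313080, + strand), the kinase on the IFNGR2 chain, had the highest scores of the 9 genes in both conditions. Its listed elements made up 15.4% of the gene total in Ctr-OPCs against 25.7% in IFN-γ-OPCs. The intronic element 2.10 kb from the start site, chr19:29253676-29254175 in Ctr-OPCs, had a score of 0.0702 there and of 0.121 in IFN-γ-OPCs. Its activity was 1.77 and 3.13, a ratio of 1.77, and its contact 0.0259 and 0.0346, a ratio of 1.34. The element was also wider in IFN-γ-OPCs, at 928 bp instead of 500 bp, and per bp of width its activity was nearly equal, with a log2 ratio of -0.07.

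A second intronic element of Jak2, chr19:29254325-29255493, was listed in IFN-γ-OPCs alone, 3.08 kb from the start site and next to the first. It was 1169 bp wide, with an activity of 2.37 and a score of 0.0919. It shares its contact of 0.0346 with the first element because both fall in the same bin. Its product of activity and contact, 0.0821, was 6.30 times the product that would have listed it in Ctr-OPCs, where no listed element of any gene overlapped it. Both elements carried the GAS matches shown above.

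The other Jak2 element of both tables lay 13.8 kb into the gene, and its score differed more than its own activity and contact. Its activity of 3.25 in Ctr-OPCs against 3.42 in IFN-γ-OPCs and its contact of 0.0118 and 0.0113 were close, at the same width of 500 bp. Its score was 0.0590 in Ctr-OPCs against 0.0432 in IFN-γ-OPCs, below the cut-off, because the gene total in the denominator was higher. The gene total of Jak2 was 0.651 in Ctr-OPCs against 0.893 in IFN-γ-OPCs. In Ctr-OPCs a far element in a coding exon of Cdc37l1, 257 kb upstream, was also listed, with a score of 0.0252 and an activity of 3.42. Its activity in IFN-γ-OPCs was 2.90, and there it was listed for 5 genes but not for Jak2.

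Socs1 (ENSMUSG00000038037, chr16:10782240-10785536, - strand), which encodes a JAK inhibitor central to the feedback on IFN-γ, had 1 listed element in each condition, at different places. In Ctr-OPCs the element lay in an intron of Rmi2, 58.8 kb upstream, with an activity of 2.18, a contact of 0.0153 and a score of 0.0286. In IFN-γ-OPCs the element lay 1.77 kb upstream of the start site, at chr16:10787056-10787555, with an activity of 2.62, a contact of 0.0460 and a score of 0.0753. By position this element and the start site fall in the same 5 kb bin, so the contact does not resolve element from promoter. No element of any gene was listed at this place in Ctr-OPCs. Its product of activity and contact in IFN-γ-OPCs, 0.120, was 5.16 times the 0.0233 that would have listed it for Socs1 in Ctr-OPCs.

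The Rmi2 element was not lost in IFN-γ-OPCs: it was listed there for Rmi2, Gm26822 and Gm10343, with an activity of 1.81 at a width of 500 instead of 1147 bp. Its product in Ctr-OPCs was 1.04 times the product needed for Socs1 in IFN-γ-OPCs, where the gene total was higher. The promoter activity of Socs1 was at quantile 0.933 in Ctr-OPCs, with 2406 of 25779 listed genes above it, and at quantile 0.9997 in IFN-γ-OPCs, with 10 of 26591 genes above it. This change in quantile was at the 86.1th percentile of all genes in both tables. The quantile of Jak2 was lower in IFN-γ-OPCs, at 0.963 with 1357 genes above it, than in Ctr-OPCs, at 0.987 with 441 above it. That of Socs3 was 0.856 and 0.900, and those of Ifngr1, Ifngr2 and Socs2 were higher in IFN-γ-OPCs by 0.0128 to 0.0204. The gene total of Socs1 was 1.17 and 1.60. Within 50 kb of the start site 4 elements were listed for any gene in Ctr-OPCs against 8 in IFN-γ-OPCs, with summed activities of 2.61 and 9.72.

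Socs3 (ENSMUSG00000053113, chr11:117966079-117970047, - strand), whose protein inhibits JAKs at gp130-type receptors, had an element 6.16 kb upstream in both conditions, listed for no other gene. Its score was 0.0235 in Ctr-OPCs against 0.0523 in IFN-γ-OPCs, 2.22 times higher and just over the cut-off. Contact was 0.0439 and 0.0697, a ratio of 1.59, and activity 1.22 and 1.64, a ratio of 1.34, both at a width of 500 bp. This score ratio was at the 96.9th percentile of 29858 matched pairs. A second element, 30.1 kb downstream, entered the Socs3 list in IFN-γ-OPCs with an activity of 4.40 and a score of 0.0382. In Ctr-OPCs that element had an activity of 3.75 and was listed for Gm11726 and Pgs1. The gene total of Socs3, 2.28 and 2.19, was higher than that of 98.7% and 99.4% of the genes of each table, and the highest among the listed genes of the 2 groups.

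Socs2 (ENSMUSG00000020027, chr10:95385362-95417180, - strand) had 2 listed elements in Ctr-OPCs against 3 in IFN-γ-OPCs, all within the gene and within 2.67 kb of its start site, and none was a connection. The farthest had an activity of 0.562 in Ctr-OPCs at 500 bp and of 0.903 in IFN-γ-OPCs at 673 bp, with scores of 0.0270 and 0.0386. The nearest had activities of 0.835 and 0.685 and scores of 0.0401 and 0.0292. The element between them was listed in IFN-γ-OPCs only, with a score of 0.0203 at the limit of the table. Contact was 1 shared value for the elements of a table, at 0.0332 in Ctr-OPCs against 0.0312 in IFN-γ-OPCs. The neighbouring 5730420D15Rik, which starts 195 bp from Socs2, shared all 3 places, so these data cannot assign them to 1 of the 2 genes.

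Usp18 (ENSMUSG00000030107, chr6:121245906-121270917, + strand) and Ptpn2 (ENSMUSG00000024539) appeared in 1 table each, with 1 element and no connection. The Usp18 element, chr6:121251037-121252662 in IFN-γ-OPCs, spans coding exon and UTR sequence 5.94 kb from the start site, with an activity of 1.17, a contact of 0.0215 and a score of 0.0257. It is the widest IFN-γ-OPC element of the 9 genes, at 1626 bp, and no element was listed at its place in Ctr-OPCs. Usp18 had a promoter activity quantile of 0.966 and a gene total of 0.977 in IFN-γ-OPCs. It cannot be said from these tables whether the gene was missing from Ctr-OPCs because of its promoter activity or because no element reached the lowest score.

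For Ptpn2, whose start site is at 67724595 on chromosome 18, the element listed in Ctr-OPCs lay 44.2 kb upstream in an exon of 4930549G23Rik, with an activity of 1.62 and a score of 0.0382. The same element scored higher, 0.0795, for Seh1l. In IFN-γ-OPCs it had an activity of 1.20 at a width of 500 instead of 966 bp, and was listed for Gm26910, Seh1l, Cep76 and Psmg2 but not for Ptpn2.

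Gene totals, which do not depend on the cut-off, did not separate the 2 groups. The log2 ratio of IFN-γ-OPCs over Ctr-OPCs was 0.06 for Ifngr1, -0.08 for Ifngr2 and 0.45 for Jak2, with a median of 0.06. It was 0.46 for Socs1, 0.08 for Socs2 and -0.06 for Socs3, with a median of 0.08. The median over all 20321 genes in both tables was -0.07, and 5 of the 6 ratios were above it. None of the 6 was past 1.5-fold, beside 0.615% of all genes that were at least 1.5-fold higher and 0.118% that were at least 1.5-fold lower. Each group held 1 gene in the upper tail: only 329 genes had a higher ratio than Jak2, 1.37-fold, and 327 a higher ratio than Socs1, also 1.37-fold. With contact replaced by a power law of distance the ratio was 0.42 for Jak2 and 0.60 for Socs1, while Ifngr1 turned to -0.02.

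**Figure D2:**
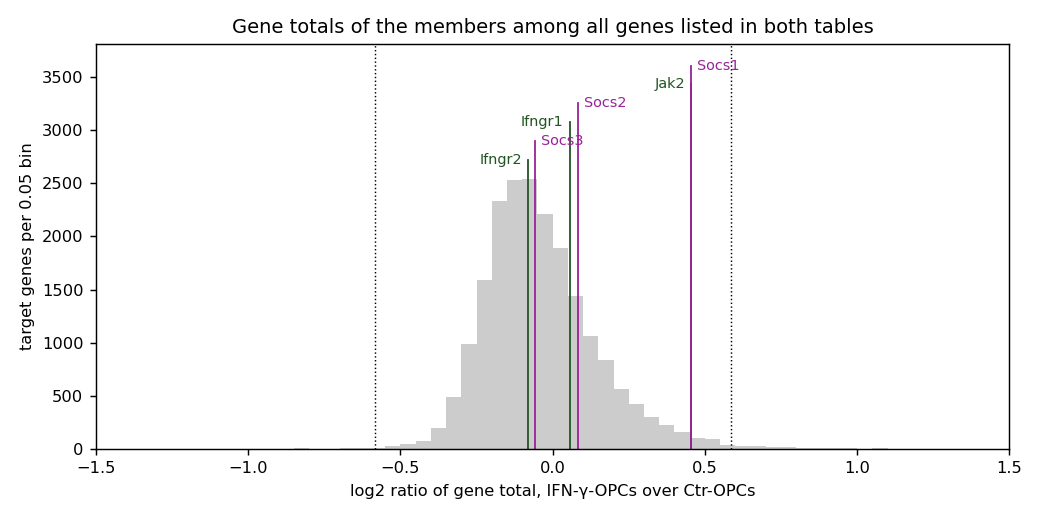
Histogram of the log2 ratio of gene total, IFN-γ-OPCs over Ctr-OPCs, in 20321 genes (grey, genes per bin), with a vertical line for each of the 6 genes listed in both tables, receptor and kinase genes in green and negative regulators in purple. Dotted lines mark 1.5-fold. Jak2 and Socs1 coincide at 0.45 and 0.46, and the other 4 genes lie between -0.08 and 0.08.

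Activity and contact were compared in the 6 pairs present in both tables, 3 per group. For the negative regulators the median log2 ratio was 0.43 for activity and -0.09 for contact. For the receptor and kinase genes it was 0.07 for activity and -0.06 for contact. Over all 29858 matched pairs the medians were -0.09 and 0.05. Activity was at least 1.5-fold higher in 2 of the 6 pairs, 1 of Jak2 and 1 of Socs2, and at least 1.5-fold lower in 1, of Ifngr2, beside 7.48% and 11.0% of all matched pairs. All 3 of these elements differed in width between the tables, and per bp of width none of them was past 1.5-fold. Contact was at least 1.5-fold higher in 1 pair, that of Socs3, and at least 1.5-fold lower in 0, beside 12% and 8.33%. The median of the negative regulators rests on 3 pairs of 2 genes, and the contact of both Socs2 pairs is a single value per table.

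**Figure D3:**
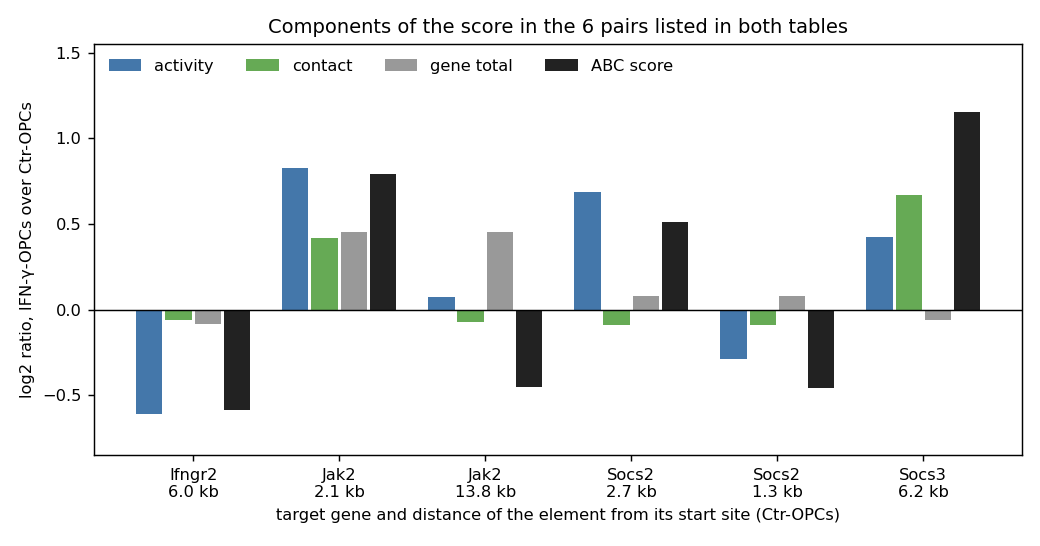
Log2 ratio of IFN-γ-OPCs over Ctr-OPCs for activity, contact, gene total and ABC score (bars) in the 6 matched pairs, named by target gene and distance from the start site in Ctr-OPCs. The Socs3 pair is the 1 with both activity and contact clearly above 0 and a gene total near 0. In the Jak2 pair at 13.8 kb the score is lower while activity and contact are near 0.

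When places were matched whatever the target gene, 13 elements could be compared, 7 of receptor and kinase genes and 6 of negative regulators. Their median log2 ratio of activity was -0.23 and -0.02, with -0.08 over all 19332 matched elements. The 3 Ifngr2 elements, at -1.07, -0.85 and -0.61, were the lowest of the 13, and the Jak2 element at 2.10 kb was the highest, at 0.83. All of these differed in width between the tables by at least 1.5 times. Over all elements that were at least 1.5 times narrower in IFN-γ-OPCs the median log2 ratio was -0.66, and over those at least 1.5 times wider it was 0.61, whereas it was -0.05 at 500 bp in both. Among the 6 elements at 500 bp in both tables, the far Ifngr1 element had the highest ratio, 0.68, followed by the Socs3 elements at 0.43 and 0.23. Per bp of width, the log2 ratio of activity was 0.15 for the intronic Ifngr2 element, in place of -0.61, -0.07 for the Jak2 element, in place of 0.83, and 0.26 for the Socs2 element of 500 and 673 bp, in place of 0.68.

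**Figure D4:**
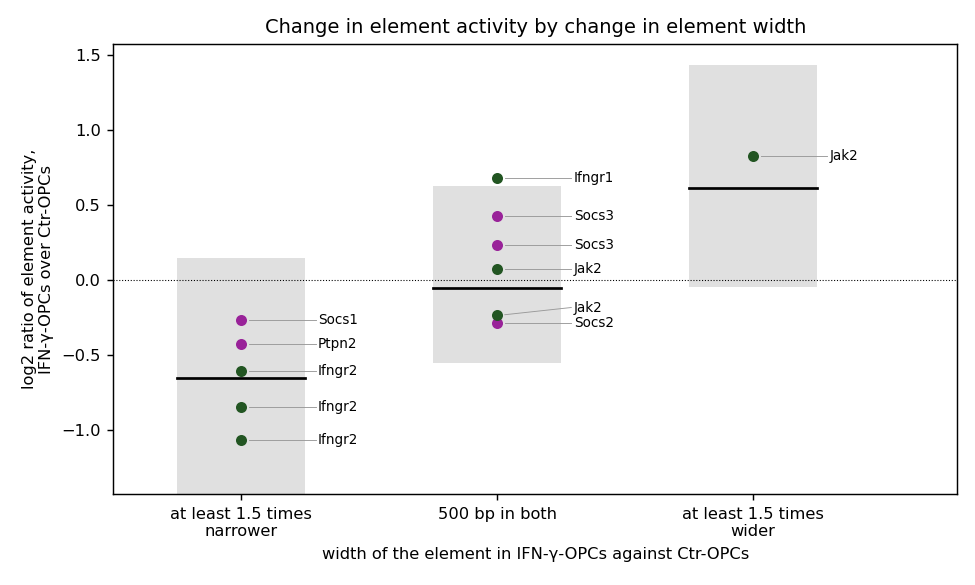
Log2 ratio of element activity by class of width change. Grey bars span the 5th to 95th percentile over all matched elements and black lines mark the median. Points are 12 of the 13 matched elements of the 9 genes (the Socs2 element of 500 and 673 bp falls in no class), receptor and kinase genes in green and negative regulators in purple. The 3 Ifngr2 elements were narrower and the Jak2 element wider, with ratios within the range of their classes, and the far Ifngr1 element lies above that of its own.

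Around the start sites, elements listed for any gene numbered 3 in Ctr-OPCs against 4 in IFN-γ-OPCs at Jak2, 4 and 8 at Socs1, 5 and 8 at Socs3, and 6 and 6 at Ifngr2, within 50 kb. They numbered 0 and 4 at Jak1, 1 and 4 at Usp18, 2 and 3 at Socs2, and 2 and 1 at Ptpn2. Their summed activity was 6.07 and 9.77 at Jak2, 2.61 and 9.72 at Socs1, 8.59 and 12.2 at Socs3, and 5.69 and 3.57 at Ifngr2. For Ifngr1 there were 3 elements in Ctr-OPCs against 0 in IFN-γ-OPCs, and 2 of these 3 scored highest for Il22ra2. Elements were thus more numerous in IFN-γ-OPCs at 6 of the 9 genes and less numerous at 2, beside 39.7% and 31.3% of all target genes. The gain of 4 elements at Socs1 and Jak1 was reached by 4.18% of all target genes, and that of 3 at Socs3 and Usp18 by 9.34%. Over all target genes the median was 3 elements in each condition, with a median summed activity of 2.59 in each, while the tables held 33083 elements in Ctr-OPCs against 35906 in IFN-γ-OPCs. An element enters the tables only through a score of at least 0.02 for some gene, and promoter elements may be left out. These numbers therefore count listed elements and not all accessible ones.

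**Figure D5:**
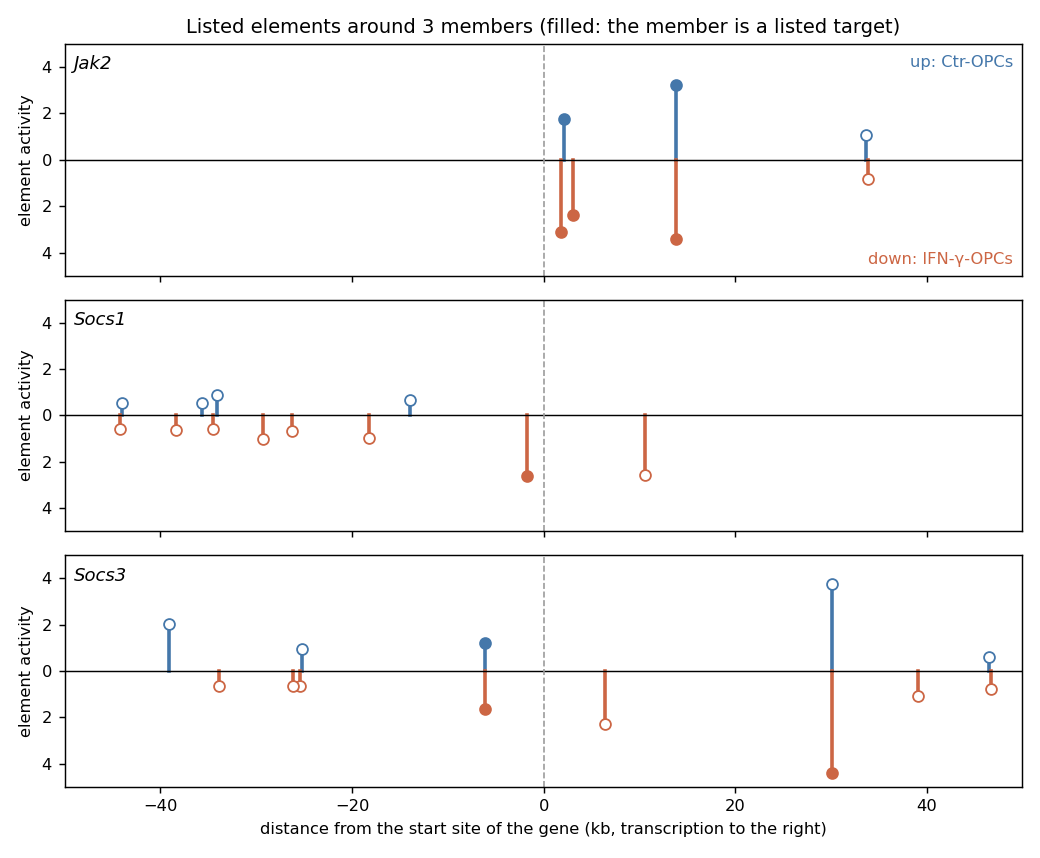
Listed elements within 50 kb of the start sites of Jak2, Socs1 and Socs3. Each stem stands at the distance of an element from the start site (kb, transcription to the right) and its length is the activity, upward for Ctr-OPCs and downward for IFN-γ-OPCs. Filled points are elements listed for the gene named in the panel, open points those listed for other genes. The stem just upstream of Socs1 exists in IFN-γ-OPCs only, with an activity of 2.62, as does the second of the 2 stems next to the Jak2 start site.

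Elements that were connections of these genes were mostly listed for neighbours too. The Socs1 element of IFN-γ-OPCs had 8 other target genes. It was a connection of Prm3, with a score of 0.0804, and of Tnp2, with 0.0753, while Gm46563, Prm1, Gm10343, Gm11172, Rmi2 and Gm26822 had scores from 0.0217 to 0.0409. Prm1 and Tnp2 encode sperm chromatin proteins. The Jak2 element at 2.10 kb had no other target in Ctr-OPCs, but it had 10 in IFN-γ-OPCs, 1 of them a connection, Mir101b at 0.0642. The others were Ak3, 1700018L02Rik, Rcl1, Plpp6, Insl6, Rln1, A930007I19Rik, Ric1 and D930032P07Rik, at 0.0219 to 0.0459. The second Jak2 element had 4, namely Mir101b, 1700018L02Rik, Ak3 and Rcl1, at 0.0227 to 0.0486.

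The Jak2 element at 13.8 kb, a connection in Ctr-OPCs, had 12 other targets there. It was a connection of AC113961.1 as well, at 0.0635. Ak3, 1700018L02Rik, Insl6, AC113961.2, A930007I19Rik, Ric1, Gm26942, Foxd4, D930032P07Rik, Rln1 and Rcl1 had scores from 0.0217 to 0.0432. The Socs3 connection of IFN-γ-OPCs had no other target gene.

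The gene most alike in its set of listed elements, by the share of places held in common over both tables (Jaccard index), started between 195 bp and 235416 bp from the gene itself. The index was 1 for Socs1 and Tnp2 over 2 places, for Socs2 and 5730420D15Rik over 3 and for Ptpn2 and Cep192 over 1. It was 0.8 for Jak2 and Rcl1, 0.667 for Ifngr2 and Mir6367, 0.5 for Socs3 and Pgs1 and 0.167 for Ifngr1 and Olig3. Usp18 shared its element with no gene.

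Other genes of cytokine signalling were counted in 3 lists of 34 genes. Among 11 other receptor and kinase genes, connections numbered 5 in each condition and 0 genes differed in number. Among 8 signal transducers and interferon regulatory factors there were 0 in Ctr-OPCs against 2 in IFN-γ-OPCs, and 1 gene, Irf1, was listed in IFN-γ-OPCs only, beside 19.6% of all target genes. In the receptor and kinase list 1 gene, Il10rb, was also listed in IFN-γ-OPCs only and 1, Ifnar1, in Ctr-OPCs only. Among 15 other negative regulators there were 6 in Ctr-OPCs against 3 in IFN-γ-OPCs, with 2 genes having fewer and 0 having more, beside 13.0% and 14.9% of all target genes. Socs6, which encodes another SOCS protein, had 3 and 1. The median log2 ratio of gene total was -0.10, 0.03 and -0.16 in the 3 lists, beside -0.07 over all genes, and 0 of the 22 genes with a ratio was past 1.5-fold. Of these 15 genes 5 were listed in neither table, so the counts rest on 10 genes.

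Markers of cell types were read from the same tables. All 8 OPC and oligodendrocyte lineage genes, among them Pdgfra, Cspg4 and Sox10, were listed in both conditions, with 15 connections in Ctr-OPCs against 13 in IFN-γ-OPCs. Their gene totals were higher in IFN-γ-OPCs for 2 of 8, beside 35.7% of all genes, with a median log2 ratio of -0.10, beside -0.07. Of 8 microglia genes, 3 were listed in Ctr-OPCs against 5 in IFN-γ-OPCs, with 2 connections and 0, and Itgam, Ptprc and Trem2 were listed in neither. The 2 genes listed in IFN-γ-OPCs only stand beside 19.6% of all target genes. The gene totals of the listed microglia genes ranged from 0.342 for P2ry12 to 1.08 for Cx3cr1 in Ctr-OPCs, and from 0.488 for P2ry12 to 1.78 for Aif1 in IFN-γ-OPCs. The log2 ratio of P2ry12, 0.51, was above those of Jak2 and Socs1, and those of Csf1r and Cx3cr1 were 0.10 and -0.12. Of 6 astrocyte genes, 5 were listed in both conditions and Aqp4 in neither, with 4 connections in Ctr-OPCs against 6 in IFN-γ-OPCs. Slc1a3 had 2 and 4 of these and a log2 ratio of gene total of 0.36, Slc1a2 had 0.27, and the other 3 astrocyte genes were between -0.15 and -0.06. The cells had been selected for EGFP or CD140a, both marks of the oligodendrocyte lineage in this line. The part of these markers in the values of Socs1, Socs3 and Jak2 was not tested, and in these bulk cultures more signal per cell and more cells with signal cannot be told apart.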

How the data were processed

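HiChIP for H3K27ac was measured in 6 libraries, 3 per condition, grouped by the treatment in their titles. Per the study's methods, the authors aligned reads to mm10 and removed duplicates with HiC-Pro, then ran the ABC model on ATAC-seq and H3K27ac CUT&RUN of each condition with HiChIP contacts. The names of the deposited tables give a bin of 5 kb. The version of the ABC model is not given in the sources used here. The authors deposited element activity as a signal from ATAC-seq and H3K27ac coverage, the ABC score as a fraction, and contacts, products and power-law values as score columns with no fixed range. Libraries were pooled, and how activity and contact were scaled between conditions is not stated. The 4 other deposited files repeat the same pairs and were not used.

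The gene total was recovered for each pair from its product and its ABC score, and the median over the pairs of a gene was used. Pairs were matched between tables by mutual best overlap of at least 1 bp with the same target gene. Symbols and annotation came from GENCODE M21, which held 31937 of the 32049 target genes, and promoters from RefSeq. Positions are 1-based. The genes, lists and comparisons were chosen with earlier results of these data known. Named genes were the 9 genes, the most alike gene of each, other targets of their connections, and genes of the 3 lists with a total past 1.5-fold or at least 2 connections more or fewer. Marker genes, Irf1, Il10rb, Ifnar1 and other targets of described elements were named after their values were seen. One gene of these lists is not reported here. The procedures were tested on simulated data. Python 3.11.15, pandas 2.3.3, NumPy 2.4.6, matplotlib 3.10.9 and samtools 1.23.1 were used. Alternatives were other cut-offs, scores, scalings, overlaps and motif letters.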

Additional observations from a re-analysis of the deposited data

How the results depend on the processing

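No paired analysis was possible because the 3 libraries of a condition share 1 table. For the same reason no library could be left out. The change in connections of the negative regulators, 2 at the cut-off of 0.05, was 0 at a cut-off of 0.1 and 2 over all listed pairs, with the power-law score and with 11648 top-scoring connections per table. The genes behind it differed: over all listed pairs Socs2, Socs3 and Usp18 had 1 more each, Ptpn2 1 fewer and Socs1 0 more, and with the power-law score Socs1 and Usp18 had more, not Socs3. For the receptor and kinase genes the change of 0 was -2 over all listed pairs, 1 at a cut-off of 0.1 and 1 with the power-law score. The median log2 ratio of gene total, 0.08 and 0.06 for negative regulators and for receptor and kinase genes, was 0.14 and 0.11 after division by the table median, and 0.17 and -0.022 with power-law contact, where Ifngr1 also turned to -0.022. The median log2 ratio of activity, 0.43 and 0.07, was 0.50 and 0.15 after division by the median over matched elements. For the receptor and kinase genes it was 0.45 when overlaps had to reach 50% both ways and also with pairs above 0.05 only, since each setting leaves the 2 Jak2 pairs. Among alternatives chosen after seeing the data, activity per bp gave 0.26 for the negative regulators, and elements matched whatever the target gave -0.018 and -0.23. The median log2 ratio of contact, -0.09 and -0.06, was -0.12 and -0.091 after division by the median over matched pairs. With pairs above 0.05 it was 0.67, the Socs3 pair alone, and 0.17, which the 50% overlap also gave for the receptor and kinase genes. Elements with the stricter site TTCCNGGAA numbered 1 of 12 in Ctr-OPCs and 0 of 12 in IFN-γ-OPCs, in place of 4 and 4. Group medians thus rest on 1 to 7 pairs, and the depth behind the tables is unknown.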
